A study of Mus musculus with 6 samples.

Results

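The fetal growth regulators described here are 10 genes: the RNA-binding proteins Lin28a and Lin28b, the RNA-binding family Igf2bp1, Igf2bp2 and Igf2bp3, the chromatin proteins Hmga1 and Hmga2, and the transcription factors Mycn, Myc and Mycl. They were taken by gene symbol, and every probe whose accession mapped to one of these symbols was used. This gave 15 probes for the 10 genes, out of 20887 named genes on the array. Of the 10 genes, 9 passed the filter on dim probes and were tested, among 14755 genes tested in all. Lin28b did not pass it.

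RNA was measured on 6 Agilent arrays with 2 colours, 3 labelled as Bdkrb2 knockout (KO) and 3 as Bdkrb2 wild type (WT). Bdkrb2 encodes the bradykinin B2 receptor. The KO pups carried the Hoxb7cre transgene, floxed Bdkrb2 on both alleles and the R26RtdTomato reporter. The WT pups carried Hoxb7cre, R26RtdTomato and unfloxed Bdkrb2. Both groups were C57BL/6 mice at postnatal day 1 from matings on food with 5% sodium, and both were sorted by flow cytometry for GFP and dsRED. The Hoxb7 promoter drives Cre in the ureteric bud lineage, so the deletion is meant for the collecting duct and not for the whole kidney. How many pups went into a sample is not stated, so p-values measure the spread between these samples. The mating described is between floxed parents, so WT pups came from other litters, and litter and genotype cannot be told apart. No group without salt was among them.

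Lin28 proteins bind the precursors of let-7 microRNAs and block their maturation. Mature let-7 in turn lowers transcripts that carry its sites, and Hmga2, the Igf2bp genes, the Myc family genes and Lin28 itself are among its best known targets. The resulting switch is active in embryonic tissue and closes as organs mature. In the developing kidney, LIN28 is known for setting how long nephron progenitors persist, and Mycn for its activity in those progenitors. Hmga2 bends DNA and keeps the chromatin of growing cells accessible, while the Igf2bp proteins stabilise or transport growth-related transcripts.

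The let-7 family is shown first because it joins these genes. Mature microRNAs were not measured here. The sequences below are from RefSeq with build GRCm38.p6, written 5′ to 3′, and the capitals mark the seed, bases 2 to 8, that pairs with target transcripts. The 9 mature 5p forms in the table share 1 seed. These 4 lie at chr13:48538239-48538260 on the minus strand, chr13:48536078-48536099 on the minus strand, chr9:106178846-106178867 on the plus strand and chrX:151913229-151913250 on the plus strand.
mmu-let-7a-5p: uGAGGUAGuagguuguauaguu
mmu-let-7d-5p: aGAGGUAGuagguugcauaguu
mmu-let-7g-5p: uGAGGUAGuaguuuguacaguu
mmu-miR-98-5p: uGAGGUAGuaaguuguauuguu
LIN28 is known to recognise a GGAG in the loop of let-7 precursors. Of 11 hairpins of the family with both arms annotated, 8 held GGAG between the arms or reaching into the first bases of the second arm. The hairpin of let-7g, 88 bases at chr9:106178840-106178927 on the plus strand, has it in capitals here.
mmu-let-7g hairpin: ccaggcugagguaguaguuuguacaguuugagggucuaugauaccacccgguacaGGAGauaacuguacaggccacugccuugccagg

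In the RNA of these cells, Mycn, Hmga2 and Myc were higher in KO than in WT. Mycn was 4.6-fold higher, Hmga2 2.16-fold and Myc 1.72-fold, each with n = 3 arrays per group. None of the 9 tested genes was called lower by limma. At an unadjusted p under 0.05 the counts were the same, 3 higher and 0 lower, while 6771 of 14755 genes tested passed in either direction. Lin28a, Mycl, Igf2bp1, Igf2bp2, Igf2bp3 and Hmga1 did not pass the test, and Lin28b was close to background. The share called higher was 33.3% of the 9 genes, against 15.4% of all genes tested, and 35.4% of all genes were called in either direction. For 3 of the 9 genes all KO arrays lay above all WT arrays, and for none all below, against 24.0% and 28.2% of all genes tested. The median difference of the 9 genes was 0.22 on the log2 scale, against -0.02 over all genes tested. The members were chosen with earlier results of these data known, so the count describes them and is no test of the group.

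Each array compared a sample in Cy5 with the RNA of WT replicate 1 in Cy3, so a value is a log2 ratio to that RNA, and the array of WT replicate 1 sets its RNA against itself. Processed signals of both channels were brighter on the KO arrays. Their 75th percentile was 547.6 to 625.4 in Cy5 on KO arrays, against 282.4 to 309.1 on WT arrays. In Cy3, which held the same RNA throughout, it was 543.5 to 621.4 on KO arrays, against 283.1 to 307.6 on WT arrays. A Cy5 signal therefore cannot be compared between arrays without its Cy3 partner. All 3 KO arrays and WT replicate 1 lay in row 1 of the slide, and WT replicates 2 and 3 lay in row 2. A fit with the slide row as a block therefore takes each difference from the KO arrays and WT replicate 1 alone. The array of KO replicate 1 stood apart, with a median absolute difference of 0.216 and 0.22 from the other KO arrays, against 0.123 between those. The single probe of Bdkrb2 stayed at background on all arrays and gave no check of the genotype. Markers of collecting duct principal cells were present, but all 11 tested fell in KO, against 20.0% of all genes tested.

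**Figure D1:**
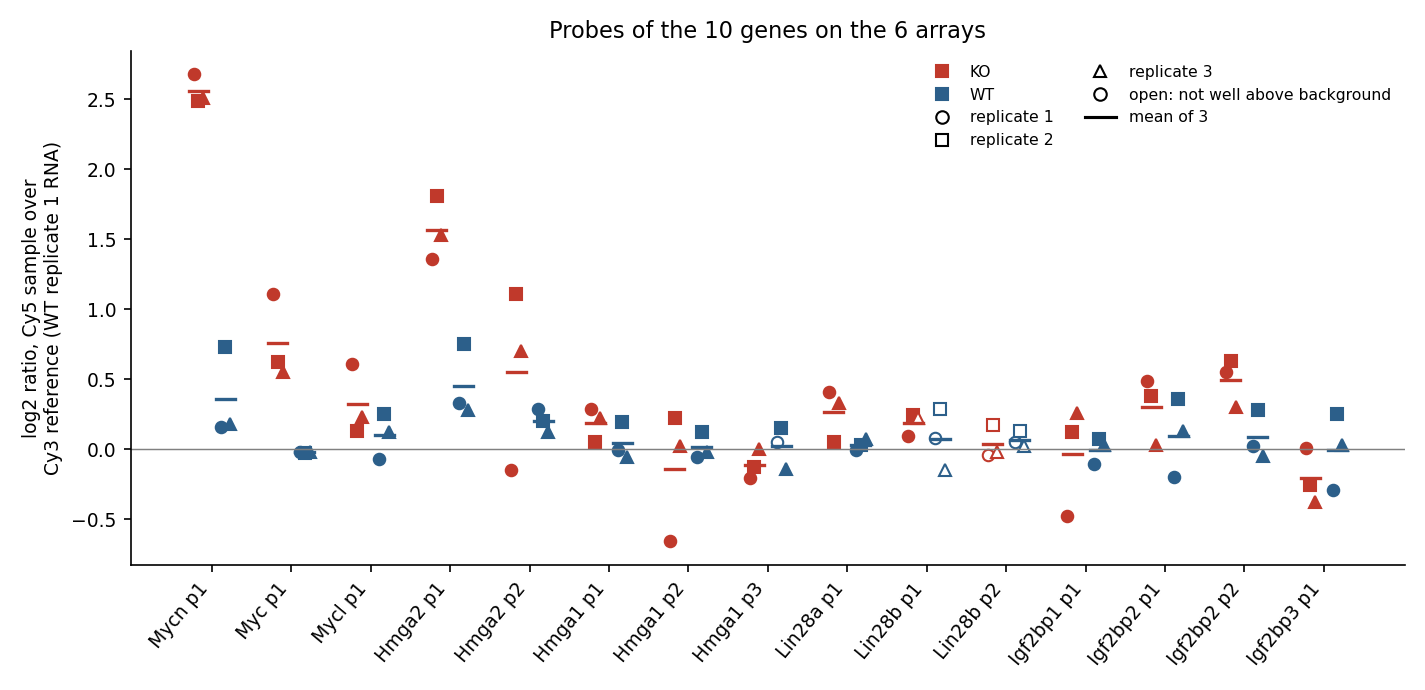
Log2 ratio of Cy5 over Cy3 (y axis) of the 15 probes on each of the 6 arrays, with KO in red left of WT in blue, a symbol per replicate, a bar at the mean of 3, and open symbols where Cy5 was not well above background. The KO arrays lie above all WT arrays for the Mycn probe (2.49 to 2.68, against 0.16 to 0.73), for Hmga2 probe 1 (1.36 to 1.81, against 0.28 to 0.75) and for the Myc probe (0.55 to 1.11, against -0.03 to -0.02).

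Mycn, the MYC family member most active in embryonic tissues, had processed Cy5 signals of 6925, 6266 and 6176 on KO arrays, against 565, 855.4 and 514.9 on WT arrays. Its Cy3 signals were 936, 945.5 and 834.3 on KO arrays, against 518.2, 492.9 and 449.1 on WT arrays. The Cy3 shift was 1.86-fold, while the Cy5 shift was 10-fold. The log10 ratios written by the scanner software were 0.869, 0.821 and 0.869 on KO arrays, against 0.038, 0.239 and 0.059 on WT arrays. After loess, the log2 ratios were 2.68, 2.49 and 2.51 on KO arrays, against 0.16, 0.73 and 0.18 on WT arrays. The groups did not overlap, the 3 KO arrays lay close together, and WT replicate 2 was the highest WT array. The log2 difference was 2.20 ± 0.16 (SE, n = 3 per group), with a 95% interval of 1.82 to 2.58, and limma gave an adjusted p = 0.000184. It exceeded the difference of 99.6% of all genes tested. Mycn was called under each of the 17 alternative settings, with differences of 2.10 to 2.57.

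The 3 tested genes whose log2 ratios over the 6 arrays lay nearest to those of Mycn were Dkk1, which encodes a secreted Wnt inhibitor, at a Euclidean distance of 0.496, Col2a1, a collagen of cartilage, at 0.578, and Six2, which maintains nephron progenitors, at 0.724. Six2 had log2 ratios of 2.48, 2.92 and 2.60 on KO arrays, against -0.06, 0.68 and -0.32 on WT arrays. As for Mycn, WT replicate 2 was the highest WT array, but Six2 was picked by its nearness to Mycn over these same arrays. That order did not hold for every nephron progenitor marker, and it also occurred among ureteric tip markers. Of 12 nephron progenitor markers tested, 9 rose and 1, Dapl1, fell, with a median difference of 1.85. Their summed Cy5 signal, in units of each array's 75th percentile, was 83.7 to 150 on KO arrays, against 39.8 to 46 on WT arrays. None of the 12 was below background throughout. Of 11 renal stroma markers tested, 8 rose, and their sum was 122 to 133 on KO arrays, against 19.1 to 53.3 on WT arrays. The 11 principal cell markers summed to 29.6 to 42.6 on KO arrays, against 151 to 176 on WT arrays, with Scnn1g below background on every array. Markers of other cell types moved as well, where 15.4% of all genes tested were called higher and 20.0% lower. All 10 intercalated cell markers, all 8 of the loop of Henle and distal tubule, 7 of 8 of endothelium, 4 of 8 of the proximal tubule and all 4 tested of erythroid cells fell, with medians of -2.40, -2.02, -1.03, -0.71 and -2.22. Of 8 immune cell markers, 6 rose and 1 fell, with a median of 1.11. Of 8 podocyte markers 3 rose, and of 10 ureteric tip markers 2 rose and 1 fell. The part of these cell types in the Mycn difference was not tested. In RNA from a sorted population, fewer cells of a type and less RNA per cell cannot be told apart.

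Myc, the family member that most dividing cells use, had processed Cy5 signals of 1733, 1216 and 1158 on KO arrays, against 366.7, 385.3 and 331.4 on WT arrays. Its Cy3 signals were 716.9, 749.4 and 700.8 on KO arrays, against 370.8, 378.8 and 328.1 on WT arrays. The log10 ratios were 0.383, 0.211 and 0.219 on KO arrays, against -0.005, 0.006 and 0.004 on WT arrays. KO replicate 1 was the highest array, and the WT arrays lay close to 0. After loess, the log2 ratios were 1.11, 0.62 and 0.55 on KO arrays, against -0.02, -0.03 and -0.02 on WT arrays. The log2 difference was 0.78 ± 0.15, with a 95% interval of 0.43 to 1.14, and limma gave an adjusted p = 0.00587. It was 0.61 without KO replicate 1 and was still called (limma adjusted p = 0.0018). With the slide row as a block the difference stayed at 0.78 but lost the call (limma adjusted p = 0.0692).

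Mycl, the third gene of the family, had Cy5 signals of 97.03 to 215.9 on KO arrays, against 33.64 to 69.39 on WT arrays. Its log2 ratios were 0.61, 0.13 and 0.23 on KO arrays, against -0.07, 0.25 and 0.12 on WT arrays. The groups overlapped, and KO replicate 1 was again the highest. The difference was 0.22 ± 0.15, with an interval of -0.12 to 0.57 (limma adjusted p = 0.282). It was 0.082 without KO replicate 1 and 0.14 without WT replicate 1. The 3 family members were also set against each other within each array. The Mycn ratio exceeded the Myc ratio by 1.56, 1.87 and 1.96 on KO arrays, against 0.18, 0.76 and 0.19 on WT arrays. Mycn exceeded Mycl by 2.07 to 2.36 on KO arrays, against 0.06 to 0.48 on WT arrays. The Myc ratio minus the Mycl ratio was 0.32 to 0.51 on KO arrays, against -0.28 to 0.05 on WT arrays. None of these 3 sets of values overlapped between KO and WT. The exact permutation test, 2-sided, gave p = 0.1 for each of the 3 pairs, the smallest that 3 against 3 arrays allow. After adjustment over 12 such pairs, of paralogs or of probes of 1 gene, this permutation p was 0.171.

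**Figure D2:**
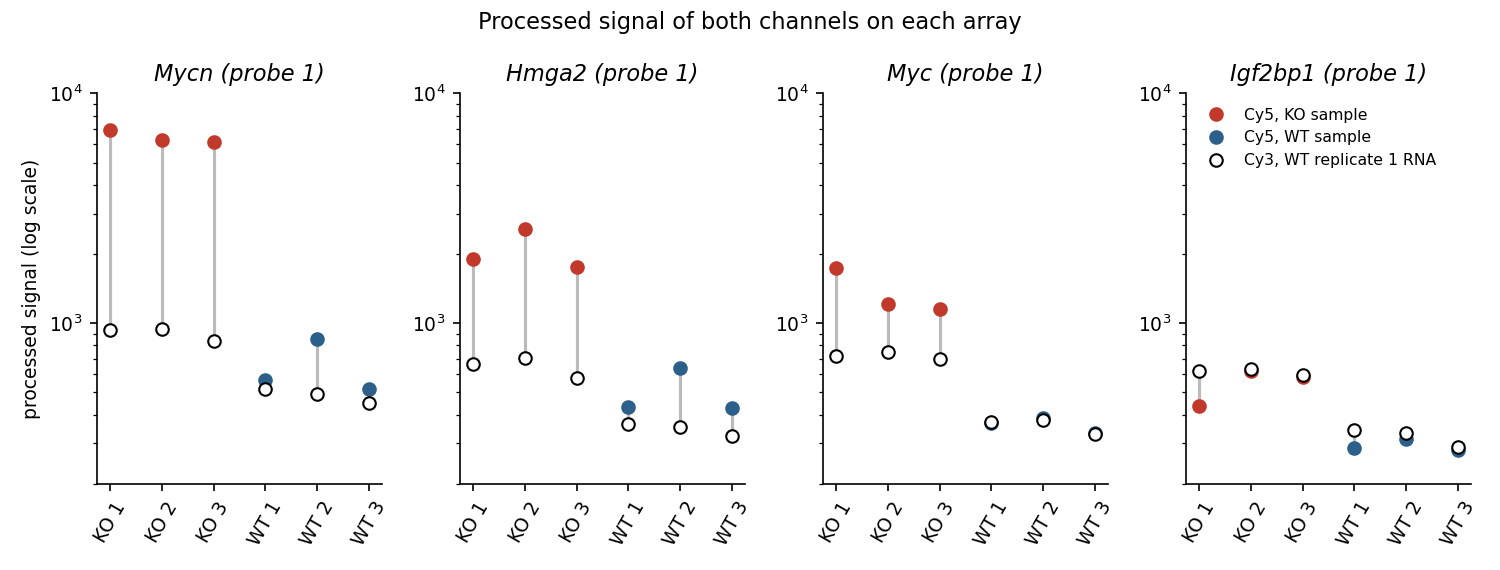
Processed signal (y axis, log scale) of Cy5 (filled, the sample) and Cy3 (open, WT replicate 1 RNA) on each array (x axis) for Mycn, Hmga2 probe 1, Myc and Igf2bp1, with a line joining the channels of 1 array. Cy3 is higher on KO than on WT arrays for all 4 probes, and on KO arrays Cy5 lies far above Cy3 for Mycn, Hmga2 and Myc, while for Igf2bp1 it lies just under or below Cy3.

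The promoters of Mycn and Hmga2 are shown because these genes had the largest differences. Both are the 250 bases before the RefSeq gene start of build GRCm38.p6, on the minus strand, at chr12:12941837-12942086 for Mycn and chr10:120476470-120476719 for Hmga2. Matches on either strand to 3 motifs are in capitals: the MYC E-box CACGTG, the E2F motif TTTNGCGC and the GC box GGGCGG.
Mycn promoter: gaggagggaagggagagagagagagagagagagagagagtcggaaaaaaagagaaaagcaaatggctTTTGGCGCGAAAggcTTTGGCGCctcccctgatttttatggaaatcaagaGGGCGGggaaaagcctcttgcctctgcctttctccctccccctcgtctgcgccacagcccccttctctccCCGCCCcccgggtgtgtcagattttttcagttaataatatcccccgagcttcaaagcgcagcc
Hmga2 promoter: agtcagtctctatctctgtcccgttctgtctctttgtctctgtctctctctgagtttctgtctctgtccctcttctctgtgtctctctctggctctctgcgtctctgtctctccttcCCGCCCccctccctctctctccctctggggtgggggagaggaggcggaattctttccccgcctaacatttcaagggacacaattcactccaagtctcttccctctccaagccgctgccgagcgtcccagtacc
The Mycn window held 3 E2F matches, of which the first pair overlap on opposite strands, and 2 GC boxes. The Hmga2 window held 1 GC box. Neither held the E-box. Of 32851 promoter windows of this length, 1.13% held the E2F motif, 32.7% the GC box and 6.02% the E-box. The E-box occurred once each in the windows of Lin28b and Igf2bp3, among the 8 of the 10 genes with a promoter entry. These matches describe letters only.

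Hmga2, which lets chromatin factors reach their sites in embryonic and growing cells, had 2 probes. Probe 1 had processed Cy5 signals of 1912, 2578 and 1757 on KO arrays, against 430.2, 640 and 426.2 on WT arrays. Its Cy3 signals were 662.5, 702.9 and 578.9 on KO arrays, against 362.7, 354.7 and 324.1 on WT arrays. The log10 ratios were 0.46, 0.564 and 0.482 on KO arrays, against 0.074, 0.256 and 0.119 on WT arrays. The groups did not overlap, and replicate 2 was the highest in both. After loess, the log2 ratios were 1.36, 1.81 and 1.53 on KO arrays, against 0.33, 0.75 and 0.28 on WT arrays. The difference was 1.11 ± 0.17 (SE, n = 3 per group), with a 95% interval of 0.73 to 1.50 and limma adjusted p = 0.00177. It exceeded that of 97.3% of all genes tested. The array that set WT replicate 1 against itself gave 0.33 for this probe, so its ratios are read against the WT arrays and not against 0.

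Probe 2 of Hmga2 was dimmer and did not behave alike on every array. Its log2 ratios were -0.15, 1.11 and 0.70 on KO arrays, against 0.29, 0.20 and 0.12 on WT arrays. KO replicate 1 was the lowest of all 6 arrays, while KO replicates 2 and 3 were the highest. In the fit across 29811 probes, of which 25.3% were called, its difference was 0.35 ± 0.28 (limma adjusted p = 0.397), against 1.11 ± 0.17 for probe 1 (limma adjusted p = 0.00281). Without KO replicate 1, probe 2 gave 0.71 and was called (limma adjusted p = 0.00338). Without KO replicate 2 it gave 0.07 and was not (limma adjusted p = 0.853). With array weights probe 2 gave 0.62 and was called (limma adjusted p = 0.0204). With median centring it gave 0.67 and was not (limma adjusted p = 0.149). Within arrays, probe 1 exceeded probe 2 by 0.70 to 1.51 on KO arrays, against 0.04 to 0.56 on WT arrays (exact permutation p = 0.1). With the mean of both probes in place of the brighter, the Hmga2 difference was 0.73 and was still called (limma adjusted p = 0.0241).

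The genes nearest to Hmga2 over the 6 arrays were Gli3, a transcription factor of Hedgehog signalling, at a distance of 0.523, Cdca7, a cell division gene, at 0.537, and Tmeff1, a transmembrane protein gene, at 0.55. Their own differences were 1.20, 1.07 and 1.32.

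Hmga1, the paralog that persists in many dividing cells, had 3 probes, and none was called. The brightest had Cy5 signals of 32420 to 37410 on KO arrays, against 14880 to 21420 on WT arrays, with Cy3 at 29170 to 34150 on KO arrays, against 15710 to 18560 on WT arrays. Both channels shifted nearly alike. Its log2 ratios were 0.29, 0.05 and 0.22 on KO arrays, against -0.01, 0.19 and -0.06 on WT arrays. The groups overlapped, and the difference was 0.15 ± 0.12, with an interval of -0.12 to 0.41 (limma adjusted p = 0.358). Probe 2 gave -0.66, 0.22 and 0.02 on KO arrays, against -0.06, 0.12 and -0.02 on WT arrays. KO replicate 1 was again the lowest array. Probe 3 was dim, with Cy5 signals of 27.16 to 38.2 on KO arrays, against 12.21 to 23.49 on WT arrays, and was not well above background on WT replicate 1. Probes 2 and 3 differed by -0.15 and -0.14, and the mean of the 3 probes gave -0.047. Neither sign was stable: probe 2 turned to 0.11 without KO replicate 1 or with median centring and to 0.060 with array weights, and probe 3 turned to 0.22 with the scanner's log ratios and the series matrix. For probe 1, leaving out single arrays gave 0.095 to 0.22. Within arrays, the Hmga2 ratio exceeded the Hmga1 ratio by 1.07, 1.76 and 1.31 on KO arrays, against 0.34, 0.56 and 0.34 on WT arrays (exact permutation p = 0.1).

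**Figure D3:**
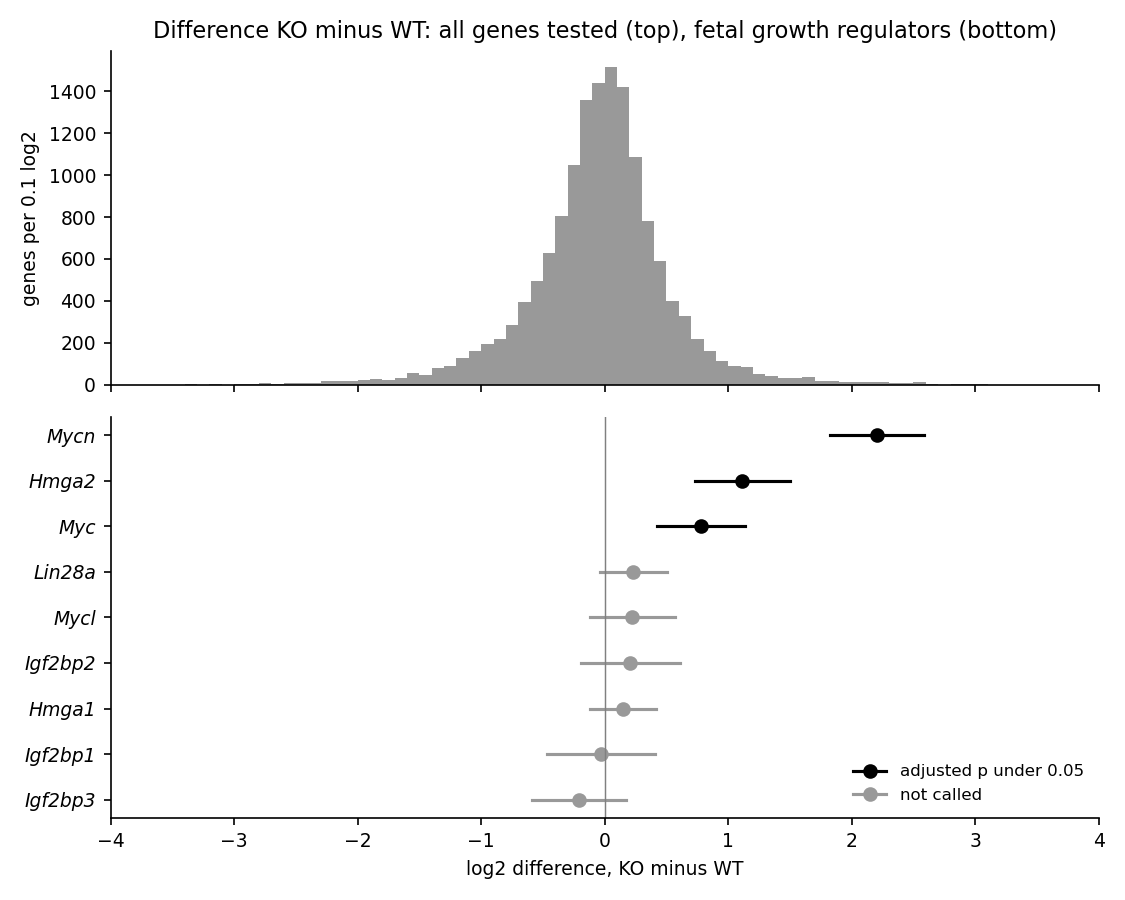
Top, distribution of the log2 difference KO minus WT over 14755 genes tested, in steps of 0.1. Bottom, the 9 tested fetal growth regulators with their 95% intervals, black where called, with Mycn at 2.20, Hmga2 at 1.11 and Myc at 0.78 in the upper tail and the intervals of the other 6 crossing 0.

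Lin28a, which blocks let-7 maturation, was dim but well above background on all 6 arrays. Its Cy5 signals were 288, 79.1 and 101.1 on KO arrays, against 33.44, 67.84 and 52.19 on WT arrays. Its Cy3 signals were 176.6, 71.81 and 63.95 on KO arrays, against 40.38, 63.99 and 45.03 on WT arrays. The array with the highest Cy5 signal, KO replicate 1, also had the highest Cy3 signal. The log2 ratios were 0.41, 0.05 and 0.33 on KO arrays, against -0.01, 0.03 and 0.07 on WT arrays. The log10 ratios were 0.212, 0.042 and 0.199 on KO arrays, against -0.082, 0.025 and 0.064 on WT arrays. The groups overlapped at KO replicate 2, and the log2 difference was 0.23 ± 0.12, with an interval of -0.04 to 0.50 (limma adjusted p = 0.163). Its size depended on the setting: 0.49 with the scanner's log ratios, 0.47 with median centring, 0.44 with Cy5 alone and 0.16 without KO replicate 1. Lin28a was called under none of the 17 alternatives.

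Lin28b, its paralog, had 2 probes near background. Probe 1 had Cy5 signals of 21.78, 23.09 and 10.41 on KO arrays, against 5.426, 15.8 and 3.197 on WT arrays. It was well above background on 2 of 3 KO arrays and on none of the WT arrays, and its Cy3 signal was not on any array. Its log10 ratios were 0.221, 0.375 and 0.139 on KO arrays, against 0.13, 0.607 and 0 on WT arrays. With Cy3 not well above background on any array, these ratios have no order. Probe 2 had Cy5 signals of 4.456 to 5.208 on KO arrays, against 3.617 to 4.527 on WT arrays, with a log10 ratio of 0 on all 6. With the filter on dim probes, no difference was tested for Lin28b. Without that filter, probe 1 gave 0.11 (limma adjusted p = 0.686) and probe 2 gave -0.034 (limma adjusted p = 0.891). At this signal a change of the transcript was not detectable.

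Of 13 other genes of LIN28 and let-7 processing tested, 1 rose and none fell, with a median difference of -0.0033 on the log2 scale. The share higher was 7.69%, against 15.4% of all genes, and 35.4% of all genes were called in either direction. The counts at an unadjusted p under 0.05 were the same, while 6771 of 14755 genes tested passed there. The gene that rose was Hnrnpa1, whose protein binds let-7 precursors among many RNAs, at 0.85 ± 0.16 (limma adjusted p = 0.00522). Dicer1, which cuts the precursor hairpin, gave 0.25, Drosha, which cuts the primary transcript, gave 0.21, and the Dicer partner Tarbp2 gave -0.16, and none of these passed the test. Tut4, which tails LIN28-bound precursors with uridines, had log2 ratios of -2.09, 0.46 and 0.17 on KO arrays, against 0.21, 0.29 and 0.18 on WT arrays. KO replicate 1 alone stood far below the other 5 arrays.

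Igf2bp1, an RNA-binding protein of embryonic tissues, had log2 ratios of -0.48, 0.12 and 0.26 on KO arrays, against -0.11, 0.07 and 0.03 on WT arrays. KO replicate 1 was the lowest array and KO replicates 2 and 3 the highest. The difference was -0.03 ± 0.19, with an interval of -0.46 to 0.41 (limma adjusted p = 0.92). Its sign turned without KO replicate 1, to 0.20, and it was not called there either (limma adjusted p = 0.172).

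Igf2bp2, the family member that stays expressed in many adult tissues, had 2 probes. Probe 1 gave 0.49, 0.38 and 0.03 on KO arrays, against -0.20, 0.36 and 0.13 on WT arrays. These groups overlapped, and the difference was 0.21 ± 0.17 (limma adjusted p = 0.388). Leaving out single arrays moved it between 0.059 without WT replicate 1 and 0.34 without KO replicate 3. Probe 2 had Cy5 signals of 1356, 1704 and 1252 on KO arrays, against 531.1, 628.1 and 473.4 on WT arrays. Its log2 ratios were 0.55, 0.63 and 0.30 on KO arrays, against 0.02, 0.28 and -0.05 on WT arrays. The lowest KO array lay just above the highest WT array. Its difference was 0.41 ± 0.13, with an interval of 0.10 to 0.72, and missed the threshold (limma adjusted p = 0.061). It passed without KO replicate 3 (limma adjusted p = 0.0434) and without WT replicate 2 (limma adjusted p = 0.0478), but on leaving out no other array. Probe 2 also passed with median centring (0.72, limma adjusted p = 0.0331) and with array weights (0.41, limma adjusted p = 0.0336). With the scanner's log ratios (limma adjusted p = 0.0712) and with Cy5 alone (limma adjusted p = 0.0899) it did not.

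Igf2bp3, the third of the family, had Cy5 signals of 241.7 to 309.8 on KO arrays, against 137.1 to 224.6 on WT arrays. Its log2 ratios were 0.01, -0.26 and -0.38 on KO arrays, against -0.29, 0.25 and 0.03 on WT arrays. The groups overlapped, and the difference was -0.21 ± 0.16, with an interval of -0.59 to 0.17 (limma adjusted p = 0.363). Within arrays, the Igf2bp2 ratio exceeded the Igf2bp3 ratio by 0.41 to 0.64 on KO arrays, against 0.09 to 0.10 on WT arrays (exact permutation p = 0.1, 0.171 after adjustment over the 12 pairs). The other 2 pairs of the family overlapped between KO and WT, with an exact permutation p = 0.7 each for Igf2bp2 over Igf2bp1 and Igf2bp1 over Igf2bp3. Leaving out single arrays moved the Igf2bp3 difference between -0.35 without WT replicate 1 and -0.077 without WT replicate 2.

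Of 8 other transcripts known to be bound by IGF2BP proteins, 1 rose and 1 fell, with a median of -0.19. The share higher was 12.5%, against 15.4% of all genes, and 20.0% of all genes fell. Btrc, a ubiquitin ligase subunit, gave 0.55 (limma adjusted p = 0.0077), and the kinase gene Mapk4 gave -0.72 (limma adjusted p = 0.00837). Igf2, the fetal growth factor that gives the family its name, had log2 ratios of -0.14, 1.39 and 1.12 on KO arrays, against 0.01, 0.10 and -0.22 on WT arrays. KO replicates 2 and 3 were far above the WT arrays, and KO replicate 1 lay among them. Its difference of 0.83 ± 0.35 did not pass the test (limma adjusted p = 0.105). Without KO replicate 1, 3 transcripts were higher and 2 lower, against 2 and 1 with all arrays, Myc counted among them. In that fit 38.7% of all genes were called, against 35.4% with all arrays. Low values of KO replicate 1 recurred beyond these genes. Of 144 genes in the lists used here, it lay more than 1 below both other KO arrays in 11 and that far above them in the remaining gene of 12. No like count over all genes or for another array is set beside it, so it describes the listed genes only.

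Of 24 let-7 targets other than the 10 regulators, 4 rose and 3 fell, with a median of 0.13. The share higher was 16.7%, near the 15.4% of all genes tested, and 20.0% of all genes were lower. Ccnd2, a cyclin of G1 phase, rose by 0.99 ± 0.14 (limma adjusted p = 0.00147). Plagl1, a zinc finger gene of imprinted growth control, rose by 0.62 and the cell cycle phosphatase gene Cdc25a by 0.53, as did Igf1r, the receptor of insulin-like growth factors, by 0.57. Hras, a small GTPase of growth signalling, fell by 0.79 on the log2 scale (-0.79 ± 0.10, limma adjusted p = 0.000939). Arid3a and Cdc34 gave -0.65 and -0.38 and also fell. With the regulators counted in, 7 targets were higher, and 6 to 8 on leaving out single arrays. With the slide row as a block, where 15% of all genes were called, 3 were higher, Mycn and Hmga2 among them. The count of 3 lower targets was 1 without each WT replicate in turn, 1 with the scanner's log ratios, the series matrix, Cy5 alone, the row block and row 1 alone, and 0 with median centring.

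**Figure D4:**
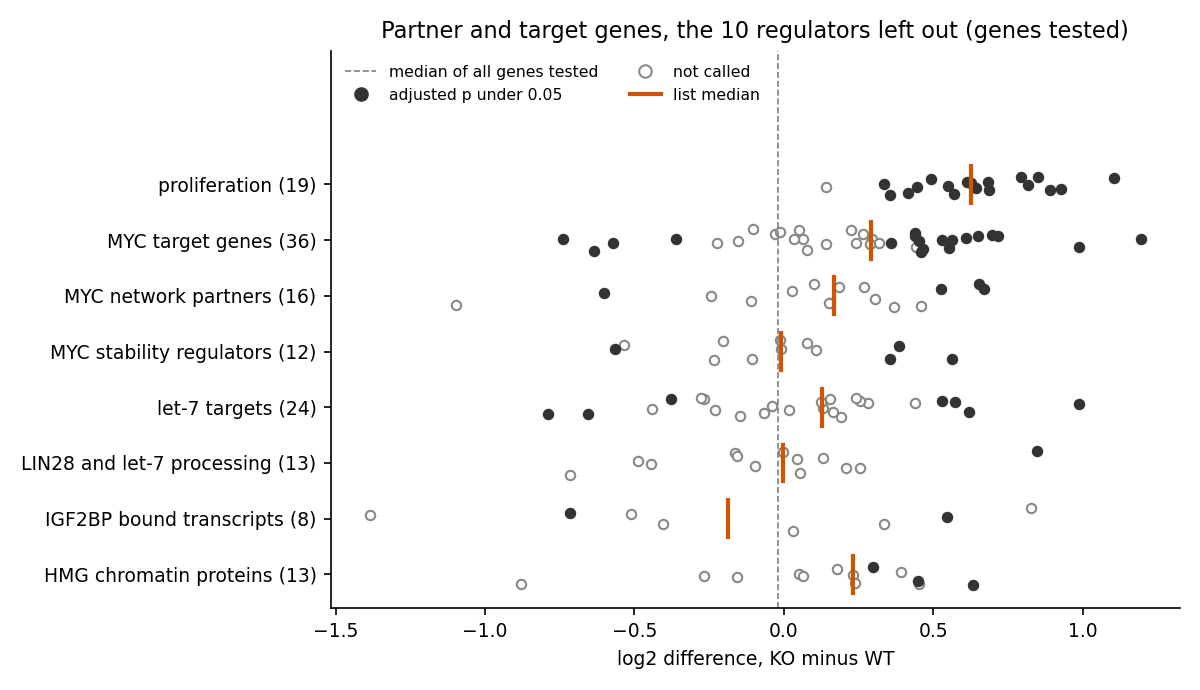
Log2 difference KO minus WT (x axis) of each tested gene in 8 lists of partners, regulators and targets (rows, with the number tested), filled where called, with the list median as an orange bar and the median of all genes tested as a dashed line. The proliferation genes lie to the right, 18 of 19 called higher, against 15.4% of all genes tested. The let-7 targets and the LIN28 and let-7 processing genes lie on both sides of 0.

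Genes known as MYC targets were more often higher than lower. Of 36 tested, 15 rose and 4 fell, which is 41.7% higher against 15.4% of all genes, with a median of 0.29. Rrs1, a ribosome assembly gene, rose by 0.70 ± 0.11 (limma adjusted p = 0.00233), and Hk2, the hexokinase that starts glycolysis, by 1.20. Ccnd2 and Cdc25a belong to this list too. Shmt1, an enzyme of folate metabolism, gave -0.74 ± 0.11, the transferrin receptor gene Tfrc gave -0.64, and the glycolytic genes Ldha and Pkm gave -0.57 and -0.36, and all 4 fell. Odc1, a textbook MYC target of polyamine synthesis, gave -0.03 and did not pass. The counts of 15 and 4 were 9 and 3 without WT replicate 3 and 5 and 2 with the slide row as a block. With row 1 alone, where 1 WT array remains, both were 0. The count of 15 was 10 without WT replicate 1.

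Of 16 partners of the MYC network, 3 rose and 1 fell, a share of 18.8% higher against 15.4% of all genes. The chromatin helicase gene Ruvbl1 gave 0.65, the acetyltransferase gene Kat2a gave 0.67 and Mxd3, which competes with MYC for MAX, gave 0.53, while Mlx, a MAX-like factor, gave -0.60 (limma adjusted p = 0.00285). The count of 3 was 1 without each WT replicate in turn and 6 without KO replicate 1. Max, the shared partner of all 3 MYC proteins, gave 0.15 ± 0.10 and did not pass. Of 12 regulators of MYC protein stability, 3 rose and 1 fell, so 4 of 12 were called, against 35.4% of all genes. The deubiquitinase gene Usp28 gave 0.56, the mitotic kinase genes Aurka and Plk1 gave 0.39 and 0.36, and the phosphatase subunit gene Ppp2r5a gave -0.56. Here the count of 3 was 1 without WT replicate 1 and 1 without WT replicate 2. Fbxw7, the ubiquitin ligase subunit that marks MYC proteins for breakdown, gave -0.20 and did not pass.

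Of 13 other high mobility group and related chromatin genes, 3 rose and none fell, with a median of 0.23. The share called was 23.1%, against 35.4% of all genes in either direction and 15.4% higher. Hmgb3 gave 0.63 ± 0.12 (limma adjusted p = 0.00516), Hmgn2 gave 0.45 and Ubtf, a factor of ribosomal RNA synthesis, gave 0.30, and Hmgxb4 at 0.39 did not pass. The count of 3 was 1 or 2 on leaving out any single array, and 1 without WT replicate 3. It was 1 with the mean of probes and with Cy5 alone, and 5 with array weights. A single gene, 1 of the 13, was called lower without KO replicate 1 and with array weights. At an unadjusted p under 0.05, 6 were higher and 1 lower, while 6771 of 14755 genes tested passed in either direction.

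Proliferation genes rose together. Of 19 tested, 18 were called higher and none lower, with a median of 0.63, and Rrm2 at 0.14 was the exception. The share higher was 94.7%, against 15.4% of all genes, and 35.4% of all genes were called in either direction. The counts at an unadjusted p under 0.05 were the same, while 6771 of 14755 genes tested passed there. The replication helicase subunit genes Mcm3 and Mcm6 rose by 1.10 and 0.89, the topoisomerase gene Top2a by 0.85 and the cyclin gene Ccna2 by 0.79. Their summed Cy5 signal, in units of each array's 75th percentile, was 298 to 331 on KO arrays, against 185 to 206 on WT arrays. The count of 18 was 11 with the slide row as a block and 3 with row 1 alone, where the only WT array is assumed to vary like the KO arrays. With the slide row as a block, no gene was called higher among the LIN28 and let-7 processing genes, the IGF2BP bound transcripts, the MYC network partners, the MYC stability regulators or the chromatin genes. With median centring in place of loess, which moved the median of all genes to 0.243, no gene of any of the 8 lists was called lower, and 18 MYC targets and 7 chromatin genes were called higher. The part of proliferating cells in the differences of Mycn, Hmga2 and Myc was not tested.

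**Figure D5:**
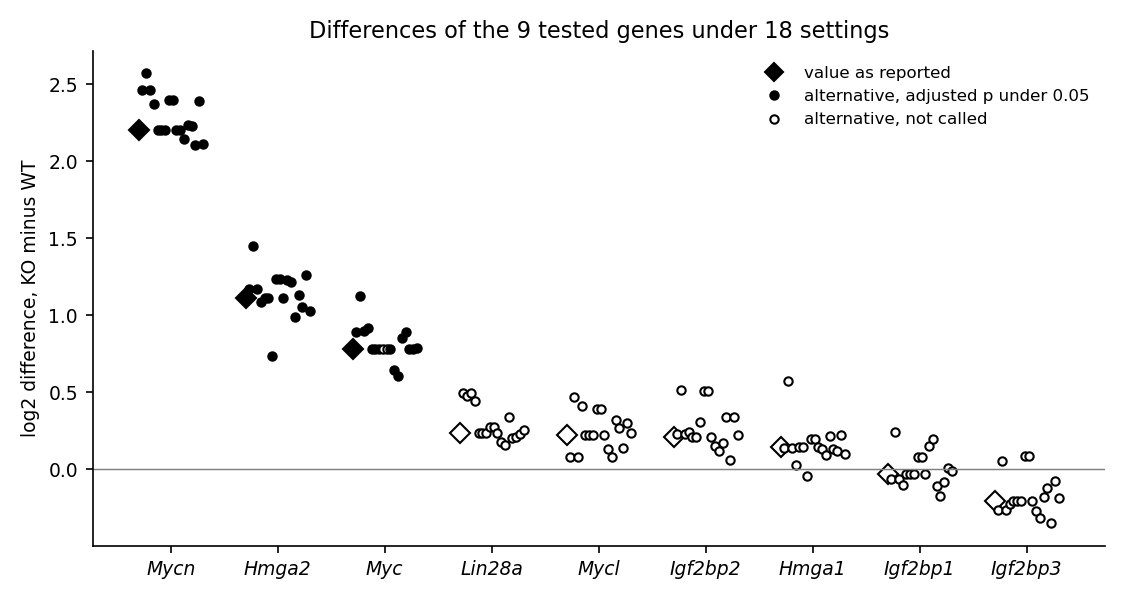
Log2 difference KO minus WT (y axis) of the 9 tested genes as reported (diamond) and under 17 alternative settings (circles), filled where called. Mycn (2.10 to 2.57) and Hmga2 (0.73 to 1.45) are filled under all 17, Myc (0.61 to 1.13) is open under 2, and the other 6 genes are open throughout, with circles on both sides of 0 for Igf2bp1, Igf2bp3 and Hmga1.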

How the data were processed

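The deposited scanner files hold median spot and background intensities of both channels and, per the file headers, were written by Agilent Feature Extraction 10.7.3.1 (the submitters' processing notes name version 6.1). The program's processed intensities have the background subtracted and the dyes normalised, per the file headers. The deposited log10 ratio divides processed Cy5 by processed Cy3. The series matrix holds the same ratios within 0.00499, with Cy5 on top, and was used as an alternative. The series text calls the experiment single-colour, but labels and files hold 2 channels.

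Probes were named by their accession through a RefSeq table of assembly GRCm38.p6, used for names only: 27509 of 55681 probes had a symbol. Median intensities were corrected by normexp (offset 50), turned to log2 ratios and normalised by loess within each array, with control spots at weight 0. Spots flagged as outliers were left out (196 to 403 per array), no spot was saturated, and 117 probes with a missing value were dropped. Spots of a probe were averaged. Probes were kept with Cy5 well above background on 3 or more of 6 arrays, and the brightest probe stood for its gene. KO and WT were compared with limma 3.58.1 in R 4.3.3 (lmFit, eBayes, 2-sided, Benjamini-Hochberg over all 14755 genes or 29811 probes, threshold 0.05), with no block. Differences are KO minus WT, errors are moderated SE, n = 3 arrays per group. The number of arrays limits the precision. The fit was tested on simulated data.

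The 10 genes, the gene lists and the tests were chosen with earlier results of these data known. Named were the 10 genes with all probes, from each list up to 4 other genes with the smallest unadjusted p (1 of them is not reported here), and the 3 genes nearest to the 2 regulators with the smallest p. Igf1r, Arid3a, Cdc34, Hk2, Ldha, Pkm, Odc1, Max, Fbxw7, Tut4 and Rrm2 were named after their values were seen. Alternatives covered background correction, normalisation, channels, filter, probe choice, slide row, replicate number, array weights and leaving out each array.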

Additional observations from a re-analysis of the deposited data

How the results depend on the processing

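Of 153 recomputed differences of the 9 genes, 141 kept sign and side of the threshold, 10 turned sign and 2 lost the call. Both lost calls were of Myc, with the slide row as a block (limma adjusted p = 0.0692) and with row 1 alone. The settings were not independent, and not all could turn a sign. The other filters and the replicate block returned the same differences. The series matrix repeats the scanner's log ratios, and the row block gives the differences of row 1 alone. Igf2bp1, called under none, turned to 0.24 with median centring in place of loess, 0.077 with the row block and with row 1 alone, 0.15 with array weights, 0.20 without KO replicate 1 and 0.0065 without WT replicate 2, in a range of -0.18 to 0.20 on leaving out single arrays. Igf2bp3 turned to 0.051 with median centring and to 0.084 with the row block and with row 1 alone, and Hmga1 to -0.047 with the mean of its probes. Over all genes, 5221 were called (6771 at an unadjusted p under 0.05), 43.5% of them higher. The count was 2209 with the row block (33.2% higher), 1647 with row 1 alone (31.1% higher), and 3244 to 5712 on leaving out single arrays, lowest without WT replicate 3. Median centring gave 4048 calls, 74.4% higher, and moved the median of all genes to 0.243, and the median of the 9 genes to 0.515. Of 13 tested probes of the 10 genes, 3 were called, while 25.3% of all 29811 probes were called. The count was 2 with the slide row as a block, where 15% of all genes were called. It was 5 with array weights, where 43.5% of all genes were called, and 3 to 4 on leaving out single arrays. The count of the 10 genes called lower was 0 throughout. The causes were not tested. Same-numbered KO and WT arrays deviated together only weakly (correlations of 0.141, 0.0733 and 0.193), so the numbers were not taken as pairs. With the replicate block 5140 genes were called, the same 3 regulator genes were higher, and probe 2 of Igf2bp2 passed (adjusted p = 0.039). Each sample correlated best with its own number, a hint from the data and not the design. Limits are the 3 arrays per group, the slide row shared by all KO arrays, signals near background for Lin28b and the lack of dye swaps.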
